A study of Mus musculus with 8 samples.

Results

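Motile cilium genes were examined as 10 genes named by symbol: Foxj1, Ccdc39, Ccdc40, Dnah5, Dnah6, Dnah9, Dnah11, Dnah12, Spag6l and Hydin. All 10 were found among the 31406 genes counted in both groups of cultures, and all 10 passed the filter on low counts together with 18756 genes in all. They were chosen from results of these same libraries, so their levels and their differences between the groups are a description and support nothing by themselves. The cultures were primary microglia of wild-type (WT) C57/BL6 mice, prepared from the striatum of pups 2 to 4 days old after the meninges had been taken off, kept 15 days in culture and activated for 48 h with LPS and IFN-γ. Every culture received SCH 58261, an antagonist of the adenosine A2A receptor, with additions at 24, 32 and 40 h. In 4 cultures (A2A antagonist) it was given alone, and in 4 others (dual) together with 200 nM 2-Cl-IB-MECA, which activates the A3 receptor for adenosine. The time is labelled Day 3, and the treatment field names the agonist for the other group than the titles do, so that the groups follow the titles. The pups came from 4 pregnant females, nothing states which sample came from which, and p-values then measure only the spread between these samples. Activated cultures without ligands were not analysed here.

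Motile cilia are beating hairs built on a ring of paired microtubules around a central pair. Dynein motors on the outer and inner arms slide the pairs against each other, radial spokes and the central pair set the beat, and a ruler of coiled-coil proteins sets the spacing of the arms. In the brain the cells known to carry them are the ependymal cells that line the ventricles and, with fewer cilia, the choroid plexus epithelium. Microglia are not known to have motile cilia.

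The libraries held between 32630602 and 45878639 counted reads and detected between 26155 and 26809 genes. Replicates of a group were not copies of each other, since every pair differed by more than counting error (chi-square per degree of freedom from 3.8 to 9.43). RNA of several brain cell types was present in all 8 libraries. On a scale per length (FPKM, the authors' fragment counts scaled to gene length and library depth), the 10 microglia markers summed to 552 to 673 per library. C1qa alone had 368 to 480 of it, and Csf1r, the next, a mean of 46, so the sums are no measure of cell numbers. Over the same libraries the 10 astrocyte markers summed to 1393 to 1482, the oligodendrocyte lineage to 227 to 263 and 6 fibroblast markers to 275 to 348. The libraries labelled microglia thus held RNA of astrocytes and fibroblasts too. In such bulk RNA, fewer cells of a type and less RNA per cell cannot be told apart.

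The ependymal markers were measured in every library. Of 11 listed, 10 passed the filter, and the whole list summed, in counts scaled to library size (CPM), to 70.8 to 75.7 in the A2A antagonist libraries and 63.4 to 75.4 in the dual libraries. Rarres2 alone had 35.9 to 39.2 CPM of it in the A2A antagonist libraries and 31.1 to 33.3 CPM in the dual libraries. Of the 10 that passed, 9 had a log2 difference above 0, and only Rarres2 was below. These sums too are no measure of cell numbers. The highest per length were Fam183b, at 14.5 FPKM ± 1.93 (SD, n = 8), and Dynlrb2, a dynein light chain, at 13.2 ± 1.45. Tmem212, used as a marker of ependymal cells, stood at 1.12 ± 0.357 FPKM. Lower still were 1110017D15Rik at 0.812 ± 0.191 and Ccdc153 at 0.652 ± 0.0792 FPKM. Mia did not pass the filter, with 4 to 12 reads per library. The choroid plexus markers gave an uneven picture. Ttr, the transthyretin gene and the most abundant transcript of that epithelium, had 1, 32, 0 and 2 reads in A2A antagonist libraries 1 to 4 and 6, 0, 68 and 5 reads in dual libraries 1 to 4. A count of 0 allows up to 0.0715 CPM in A2A antagonist 3 and 0.0789 CPM in dual 2, by counting error only. The choroid plexus list was led per length by Aqp1, a water channel also found in other cells, at 34 FPKM, and by Sostdc1 at 13.1 FPKM. Genes of sperm, whose tail is built from many of the same proteins, were at background: none of 6 passed the filter, with 0 to 4 reads for Prm1, a protamine, and for Tnp2, a transition protein.

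The 10 genes spanned a wide range of levels per length. Foxj1, the forkhead transcription factor that switches on motile cilium genes, was far above the rest at 87.6 FPKM ± 4.61 (SD, n = 8), rank 475 of all genes of the table. Next stood Ccdc40 at 4.73 ± 0.367 and Spag6l at 3.77 ± 0.554, followed by Ccdc39 at 3.45 ± 0.328 and Dnah9 at 3.25 ± 0.287. Below these were Dnah6 at 2.22 ± 0.367, Dnah5 at 1.39 ± 0.180 and Dnah11 at 1.11 ± 0.215. Dnah12 at 0.429 ± 0.145 and Hydin at 0.246 ± 0.0508 were the lowest, the latter at rank 17902.

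Foxj1 was thus 18.5 times as high per length as Ccdc40, the next gene. In this order Foxj1 stood apart from its lower neighbour when all 8 libraries were pooled, as did Dnah9 from Dnah6 and Dnah11 from Dnah12. For the other 6 neighbouring pairs the ranges over 8 libraries overlapped. Ccdc40 and Spag6l kept their order within each of the 8 libraries, whereas Spag6l and Ccdc39, and Ccdc39 and Dnah9, did so in only 6.

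**Figure D1:**
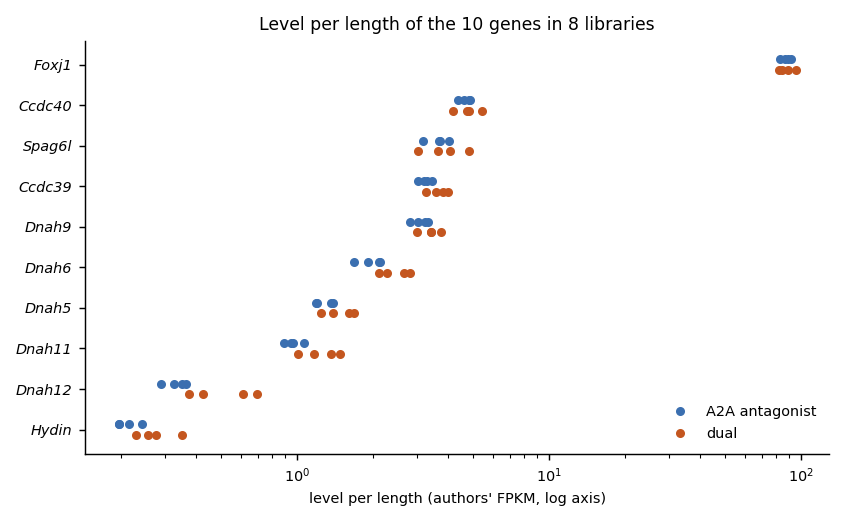
Level per length (the authors' FPKM, log axis) of the 10 genes, 1 point per library, A2A antagonist in blue and dual in orange. Foxj1 lies between 82.0 and 95.4, far to the right of the other 9 genes, and Hydin lies between 0.196 and 0.351 at the left.

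Foxj1 (chr11:116330704-116335399, minus strand, mm10) had 230, 235, 218 and 241 CPM in A2A antagonist libraries 1 to 4 and 223, 236, 252 and 217 CPM in dual libraries 1 to 4. The groups overlapped throughout, and the lowest and the highest value both belonged to dual libraries. The means were 231 ± 9.82 and 232 ± 15.5 (SD, n = 4 each), a log2 difference of 0.01 (SE 0.04) with an adjusted p of 0.973 in edgeR's quasi-likelihood test. Its sign turned to -0.04 without dual 3.

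Ccdc39 and Ccdc40 encode the coiled-coil ruler on which inner arms and the nexin links are placed. Ccdc39 (chr3:33812362-33844310, minus strand) had 24.7, 22.6, 25.7 and 23.9 CPM in the A2A antagonist libraries and 24.5, 26.9, 29.9 and 28.6 CPM in the dual libraries. Only dual 1 lay within the range of the other group, and the log2 difference was 0.18 (SE 0.06, edgeR adjusted p = 0.192). Of its exonic bases 16.9% overlap Ttc14 on the opposite strand, and the strand setting of the counting is not given in the sources used here, so reads of both genes may be mixed. Ccdc40 (chr11:119228572-119265236, plus strand) had 29.6, 29.4, 26.5 and 28.1 against 25.5, 29.4, 32.8 and 28.9 CPM. Dual 1 was the lowest and dual 3 the highest of all libraries, and the log2 difference was 0.04 (SE 0.06), or -0.03 without dual 3.

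Dnah5, Dnah9 and Dnah11 encode heavy chains of the outer arms, the motors that give the beat its power. Dnah5 (chr15:28203752-28472052, plus strand) had 22.0, 19, 18.8 and 21.6 CPM in the A2A antagonist libraries and 19.8, 22.0, 26.6 and 25.4 CPM in the dual libraries. Dual 3 and dual 4 were above every antagonist library, dual 1 and dual 2 were not, and the log2 difference was 0.21 (SE 0.08, edgeR adjusted p = 0.272). Dnah9 (chr11:65831282-66168551, minus strand) was the highest of them per length, with 52.0, 48.7, 45.4 and 53.3 against 48.5, 55.2, 59.8 and 55.1 CPM. Here 3 dual libraries exceeded the antagonist range, and the log2 difference was 0.13 (SE 0.06).

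Dnah11 (chr12:117877982-118199043, minus strand) had 15.6, 14.1, 13 and 13.8 CPM in the A2A antagonist libraries and 14.7, 17.1, 21.7 and 20.01 CPM in the dual libraries. Dual 1 lay within the antagonist range, and the log2 difference was 0.39 (SE 0.09, edgeR adjusted p = 0.0789). Cdca7l, on the other strand, covers 4.44% of the exonic bases of Dnah11.

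Dnah6 and Dnah12 encode single-headed heavy chains of the inner arms, which shape the bend of the cilium. Dnah6 (chr6:73017606-73221651, minus strand) had 28.6, 25.5, 22.4 and 28.3 CPM in the A2A antagonist libraries and 28.4, 30.5, 37.4 and 35.5 CPM in the dual libraries. The groups met only at dual 1, and the log2 difference was 0.33 (SE 0.08, edgeR adjusted p = 0.0862). Dnah12 (chr14:26693274-26891703, plus strand) had 164, 179, 146 and 199 reads, or 4.25, 3.94, 3.49 and 4.38 CPM, in the A2A antagonist libraries. In the dual libraries it had 148, 196, 384 and 328 reads, or 4.54, 5.15, 8.37 and 7.40 CPM. Dnah12 was the only one of the 10 with every dual library above every antagonist library, by a small margin for dual 1. Its log2 difference was 0.68 (SE 0.16), a ratio of 1.6, with an adjusted p of 0.0667 in edgeR's test. Over all genes tested, 3.36% had every dual library above every antagonist library.

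Spag6l and Hydin encode proteins of the central pair. Spag6l (chr16:16753016-16829456, minus strand) had 18.4, 17.0, 14.6 and 16.9 CPM in the A2A antagonist libraries and 14.0, 16.8, 22.1 and 18.7 CPM in the dual libraries. The dual libraries held both the lowest and the highest value, and the log2 difference was 0.11 (SE 0.10), or -0.02 without dual 3. Transcripts of other genes, mostly of its paralogue Spag6, held 2.05% of its stretches of 31 bases. Hydin (chr8:110266977-110610253, plus strand) had the fewest reads, 138 to 292 per library, and 3.58, 3.91, 3.57 and 4.42 against 4.69, 4.18, 6.36 and 5.01 CPM. Dual 2 was within the antagonist range and the other dual libraries above it, and the log2 difference was 0.39 (SE 0.13, edgeR adjusted p = 0.192).

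**Figure D2:**
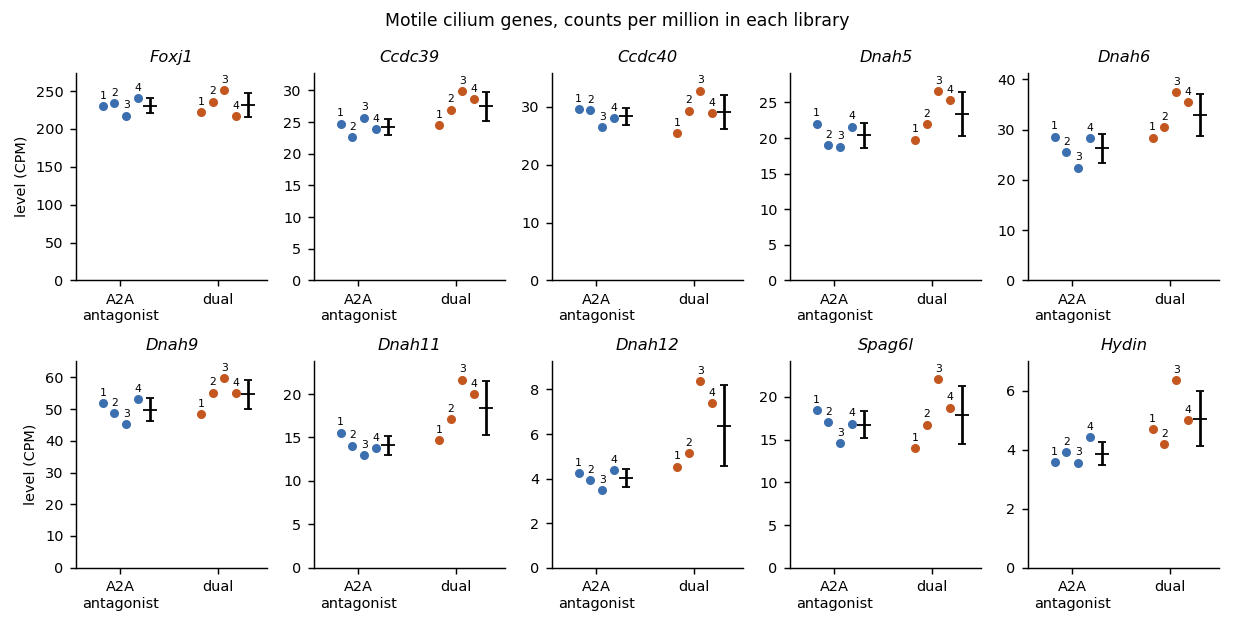
Level (CPM, axes starting at 0) of each gene in each library, with the replicate number above each point and the group's mean ± SD (n = 4) beside it. In every panel dual 3 is the highest of the 8 libraries, and the bar of the dual group is longer than that of the A2A antagonist group.

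Taking the 10 genes side by side, 10 of 10 had a log2 difference above 0, with a median of 0.20, while over the 18756 genes tested 51.5% were above 0 and the median was 0.004. None of the 10 passed an adjusted p of 0.05 in edgeR's test, where 0.208% of all genes tested did so in either direction and 0.048% as higher in dual. At an unadjusted p under 0.05 there were 7 of 10, all higher in dual, against 1122 of the 18756 genes as higher in dual and 12.8% in either direction. DESeq2 called 2 of 10, Dnah6 and Dnah11, beside 3.55% of the genes to which it gave an adjusted p, and it gave none to Dnah12 and Hydin. As the choice of the genes used this contrast, nothing is read from these counts.

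The edgeR calls also changed with single libraries. Without dual 1, where 31 genes of all tested were called, Dnah6, Dnah11 and Dnah12 passed (edgeR adjusted p = 0.0495, 0.0347 and 0.0347). Without A2A antagonist 1, where 172 genes were called, Dnah11 alone of the 10 did (edgeR adjusted p = 0.0484). Over the 12 alternatives the adjusted p of Dnah11 ran from 0.00115 to 0.224, that of Dnah6 from 0.000923 to 0.226 and that of Dnah12 from 0.000377 to 0.192. The lowest value of each came from edgeR's fit without the filter on low counts, which called 366 genes in all. The median log2 difference of the 10 genes was 0.14 without dual 3 and 0.26 without dual 1.

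The dual libraries were unlike each other. All 10 genes were highest in dual 3, 8 of 10 had their lowest dual value in dual 1, and the SD of CPM was larger in the dual group for 10 of 10. Dual 1 was above the antagonist mean for 5 of the 10 genes, dual 2 and dual 3 for 10 and dual 4 for 9. For Dnah12 the log2 distance from the antagonist mean was 0.18, 0.36, 1.06 and 0.88 in dual libraries 1 to 4, and for Foxj1 it was -0.05, 0.03, 0.12 and -0.09. Of the antagonist libraries, number 3 was the lowest for 9 of the 10 genes.

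Gene length moved with the difference across the whole table. Among genes other than the 10, with a mean of at least 1 on the log2 CPM scale, the median log2 difference went from -0.06 below 2 kb of exonic length to 0.05 at 10 kb or more (1333 genes, quartiles 0.01 and 0.10). The 6 genes among the 10 of that length, the dynein heavy chains and Hydin, ran from 0.13 to 0.68, each above the upper quartile of that bin. All 6 had an unadjusted p under 0.05, as did 22.1% of the 1333 long genes with the same sign. Every dual library was above every antagonist library for 13.7% of those long genes. The median distance of the long genes from the antagonist mean was 0.03, 0.04, 0.04 and 0.08 in dual libraries 1 to 4. The 10 genes were chosen with this contrast known, so nothing is read from their place in the bin. The part of length in the members' differences was not tested.

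**Figure D3:**
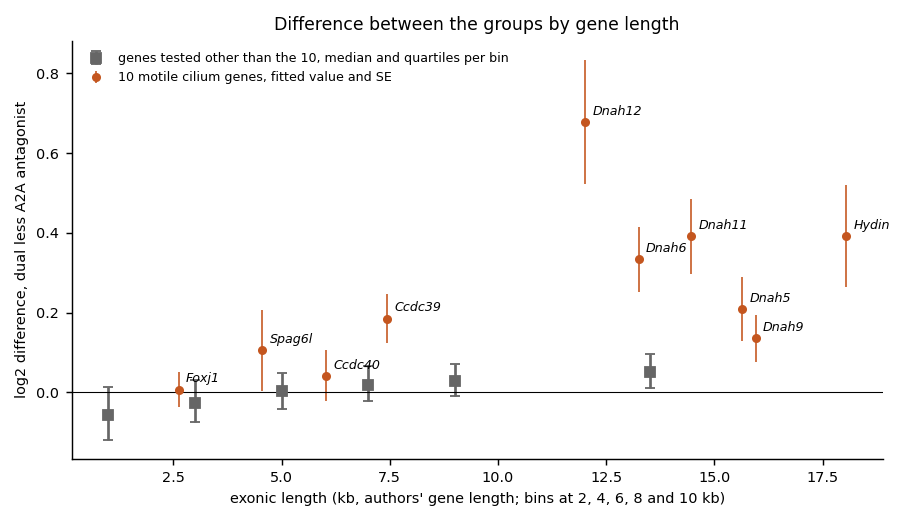
Log2 difference (dual less A2A antagonist) against exonic length in kb, for the 10 genes (orange, fitted value and SE) and for all other genes with a mean of at least 1 log2 CPM (grey, median and quartiles per length bin). The grey medians climb from -0.06 to 0.05, and the 6 longest of the 10 genes lie between 0.13 and 0.68.

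The 10 genes moved together from library to library within the groups. With group means taken away, the mean Pearson r over the 45 pairs of genes was 0.72 across 8 libraries, from 0.14 between Foxj1 and Ccdc39 to 0.97 between Dnah11 and Spag6l, and 39 pairs exceeded 0.5. The points share library, depth and culture. Foxj1 and Ccdc39 followed the others least (r of 0.58 and 0.61 with the mean of the other 9), and Spag6l most (0.97). The shared pattern rested largely on a pair of libraries. Its standardised mean was lowest in dual 1 (-1.39) and highest in dual 3 (1.46). With both left out the mean pairwise r fell to 0.39 over 6 libraries. In the dual group the standardised mean rose with the library total, from 32630602 reads in dual 1 to 45544451 in dual 3. In the antagonist group it did not: antagonist 1, with the fewest reads (38427491), had 0.43, and antagonist 2, with the most (45878639), had -0.12. The part of depth was not tested.

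By comparison, the mean pairwise r was 0.56 among the proteins inside the microtubules and tektins, where 12 of 13 genes had an r over 0.5 with the mean pattern of the 10, and from 0.12 to 0.25 in the other motile cilium lists. Among markers of cells it was 0.36 for ependymal, 0.36 for fibroblast, 0.21 for astrocyte and 0.21 for neuron. It was 0.20 for oligodendrocyte lineage, 0.18 for choroid plexus, 0.07 for endothelial and -0.02 for microglia markers. Of the 80 other motile cilium genes that passed the filter, 52, or 65.0%, had an r over 0.5 with the mean pattern of the 10. The share was 14.0% of all other genes tested, 7 of 10 ependymal and 7 of 10 astrocyte markers. It was 3 of 10 for oligodendrocyte lineage, 2 of 6 for neuron, 2 of 6 for endothelial, 1 of 10 for microglia and 0 of 6 for fibroblast markers. Of the 7 choroid plexus markers that passed the filter, 3 had an r over 0.5. In the whole choroid plexus list, Folr1, Kcnj13 and the sparse Ttr and Kcne2, which did not pass, were highest in dual 3. The others were not: Aqp1 was highest in dual 1, Slc4a5 and Kl in dual 2, and Otx2, Sostdc1 and Clic6 in dual 4. The part of these cell types in the pattern was not tested.

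The 10 genes whose library pattern was most like that of the members, among 13706 genes ranked, were Cfap44, Rsph4a, Dixdc1, Fhad1, Gm43231, Ttc30a2, Slc5a6, Wdr63, Wdr31 and Cfap43, with r from 0.99 down to 0.96 over 8 libraries. Rsph4a, a radial spoke head protein, and Wdr63, an inner arm intermediate chain, were on the cilium lists, and Cfap44 and Cfap43 encode proteins of the same axoneme. Ranked by Spearman's rho instead, 4 of these 10 stayed among the first 10. Dixdc1, Fhad1, Ttc30a2, Slc5a6 and Wdr31 had the same rho of 0.976, so that count depends on how ties are ordered. Among the 100 most alike, 8 were on the motile cilium or ependymal lists, which hold 0.518% of the genes ranked. None of the 10 differed between the groups at an adjusted p of 0.05 in edgeR's test, and Ttc30a2 and Slc5a6 had log2 differences of -0.26 and -0.01.

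**Figure D4:**
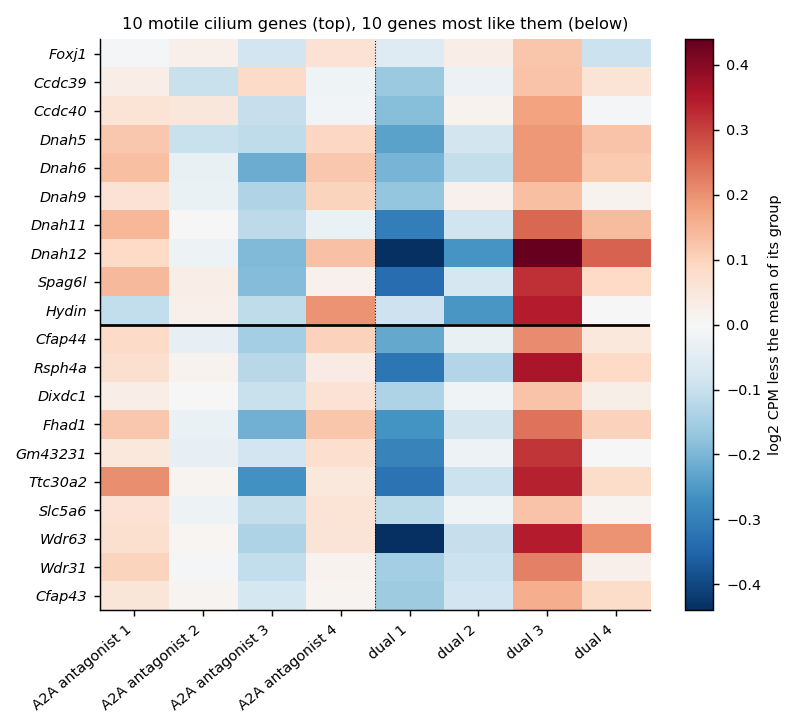
Log2 CPM less the mean of its own group, in each of 8 libraries, for the 10 motile cilium genes (above the line) and the 10 genes most like them (below). Dual 3 is above 0 and dual 1 below 0 in every row, and A2A antagonist 3 is below 0 in every row but that of Ccdc39.

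Upstream of the 10 genes, short sequences bound by cilium factors were looked for in promoters of 300 bases (250 before and 50 after the start) from RefSeq, build GRCm38.p6. An entry was found for 9 of 10 genes, all but Foxj1. RFX factors bind a pair of half-sites facing each other, written here as GTTNCC and GGNAAC with 0 to 3 bases between. None of the 9 promoters held that pair in these exact letters, nor the forkhead word TGTTTAC on either strand. Over 27025 genes of the table the shares were 0.94% and 4.05%. Looser spellings were not searched, so RFX sites of other letters may be present. The stretches below for Dnah6, Dnah9 and Hydin hold facing pairs that differ from it only in the inner letter of 1 or both half-sites. Single half-sites on either strand, searched after these results were seen, were present in 6 of 9 promoters, against 48.8% of all genes. Those of the Dnah6, Dnah5, Dnah9 and Hydin promoters that lie before the start are given here, 5′ to 3′ on the strand of the gene, with the half-site in capitals, since Dnah6 and Hydin carry more than 1. These are matches of letters, not measured binding.
Dnah6, chr6:73221760-73221815, minus strand: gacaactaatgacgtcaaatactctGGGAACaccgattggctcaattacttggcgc
Dnah6, chr6:73221632-73221678, minus strand: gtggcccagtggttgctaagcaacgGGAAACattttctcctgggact
Dnah5, chr15:28203676-28203731, plus strand: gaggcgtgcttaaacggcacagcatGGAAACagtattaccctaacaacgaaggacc
Dnah9, chr11:66168603-66168658, minus strand: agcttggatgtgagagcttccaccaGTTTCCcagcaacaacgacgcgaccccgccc
Hydin, chr8:110266826-110266881, plus strand: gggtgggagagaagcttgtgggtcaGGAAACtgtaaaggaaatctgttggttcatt
Hydin, chr8:110266939-110266976, plus strand: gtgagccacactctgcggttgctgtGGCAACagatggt
The second Dnah6 site lies 22 bases and the second Hydin site 13 bases before the start that RefSeq gives. For Dnah6 the gene as counted begins further upstream, at 73221651, within this site. Dnah11, Dnah12 and Ccdc40, with log2 differences of 0.39, 0.68 and 0.04, held no half-site of this exact spelling in this window.

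The wider machinery was read from lists of 87 further motile cilium genes, of which 86 were in the table and 80 passed the filter. None of the 80 passed an adjusted p of 0.05 in edgeR's test, and DESeq2 called 1, Cfap54 (adjusted p = 0.0251), beside 3.55% of all genes to which it gave an adjusted p. Of the 80, 66, or 82.5%, had a log2 difference above 0, against 51.5% of all genes tested, and the median was 0.10, against 0.004. At an unadjusted p under 0.05 there were 16 of 80, each with the higher level in dual. Of all 18756 genes tested, 1122 were so with the higher level in dual, and 12.8% in either direction. In 5 of 80, Gmnc, Ccno, Dnah8, Cfap54 and Cfap46, every dual library was above every antagonist library, against 3.36% of all genes.

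Of 9 regulators that make a cell multiciliated, 6 passed the filter, with 5 of 6 above 0 and a median log2 difference of 0.23. Rfx2 and Rfx3, which act beside Foxj1, had 5.29 and 4.48 FPKM and log2 differences of -0.002 (SE 0.05) and 0.10 (SE 0.06). Gmnc, which starts the programme, had 9.23, 10.2, 9.71 and 10.3 CPM in the A2A antagonist libraries and 11.1, 11.2, 11.7 and 11.1 CPM in the dual libraries. Its groups did not overlap, yet the log2 difference of 0.19 (SE 0.07) had an edgeR adjusted p of 0.220. Ccno, needed to multiply basal bodies, had 10 to 27 reads against 20 to 36, a log2 difference of 0.63 (SE 0.28, edgeR adjusted p = 0.346). Trp73 and Deup1, which act early and in basal body formation, had log2 differences of 0.28 (SE 0.17) and 0.49 (SE 0.23). Mcidas, Cdc20b and Foxn4 did not pass the filter, with at most 9, 10 and 3 reads in any library.

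Parts of the axoneme and the factors that assemble dynein arms had medians from 0.01 to 0.13. The outer arm and its docking complex, led per length by Dnal1, a light chain (11.8 FPKM), and Ccdc151, a docking protein (6.24 FPKM), had 9 of 11 genes above 0 and a median log2 difference of 0.08. The inner arm and nexin-dynein complex, led by Drc1 (12 FPKM) and Drc7 (9.36 FPKM), had 16 of 19 above 0 and a median of 0.13. Radial spoke and central pair genes, led by Rsph1 (22.9 FPKM) and Nme5 (22.7 FPKM), had 17 of 22 above 0 and a median of 0.09. Proteins inside the microtubules, led by Cfap126 (13.4 FPKM) and 1700007K13Rik (11.9 FPKM), had 13 of 13 above 0 and a median of 0.10. The factors that assemble dynein arms in the cytoplasm, led by Cfap300 (13.1 FPKM) and Cfap298 (12.6 FPKM), had 6 of 9 above 0 and a median of 0.01.

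Cilium genes that primary, immotile cilia also use gave a smaller median, 0.04 over 28 genes, led by Ift20 (24.8 FPKM) and Kif3a (17.8 FPKM). Dync2h1, the heavy chain of the motor for transport back down the cilium, was the only one of them called. It had 57.3, 56.6, 54.9 and 57.0 CPM in the A2A antagonist libraries and 63.5, 65.3, 65.2 and 69.1 CPM in the dual libraries, with no overlap. Its log2 difference was 0.22 (SE 0.04, edgeR adjusted p = 0.0240). The call was lost without A2A antagonist 2, 3 or 4 or dual 3, and the adjusted p ran from 0.000102 to 0.0932 over 12 alternatives. Dync2h1 exceeds 10 kb of exonic length like the dynein heavy chains above.

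Ependymal markers had a median log2 difference of 0.08 over 10 genes, or -0.01 without dual 3. Rarres2, the chemerin gene, was the only one called and was lower in dual, with 35.9, 37.6, 38.3 and 39.2 against 33.3, 32.3, 31.1 and 32.6 CPM. Its log2 difference was -0.23 (SE 0.04, edgeR adjusted p = 0.0358), and the groups did not overlap. The call was lost without A2A antagonist 2, 3 or 4 or dual 1, 2 or 3, and the adjusted p ran from 0.00125 to 0.156 over 12 alternatives. Rarres2 shares 892 of its 2656 exonic bases with Lrrc61 on the opposite strand. Fam183b and Dynlrb2, the markers highest per length, had log2 differences of 0.11 (SE 0.11) and 0.02 (SE 0.10).

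In the lists of other cells, C1qa, a complement subunit of microglia, was the only gene called (log2 difference -0.24, SE 0.04, edgeR adjusted p = 0.0240), and its call was lost without A2A antagonist 2, 3 or 4 or dual 3, with adjusted p-values from 9.03e-06 to 0.0932 over 12 alternatives. The median log2 difference was -0.02 for microglia, 0.02 for astrocyte, -0.04 for oligodendrocyte lineage, 0.11 for fibroblast, 0.11 for choroid plexus, 0.01 for neuron and 0.02 for endothelial markers. The highest per length in these lists were C1qa and Csf1r (420 and 46 FPKM), Gfap and Mlc1 (390 and 302), Olig1 and Olig2 (119 and 44.4), Dcn and Col3a1 (95.3 and 77.6), Cdh5 and Kdr (8.19 and 1.53), and Map2 and Gad1 (5.84 and 4.98). Fibroblast markers were above 0 for 6 of 6 genes with none called in edgeR's test, and 3 at an unadjusted p under 0.05.

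**Figure D5:**
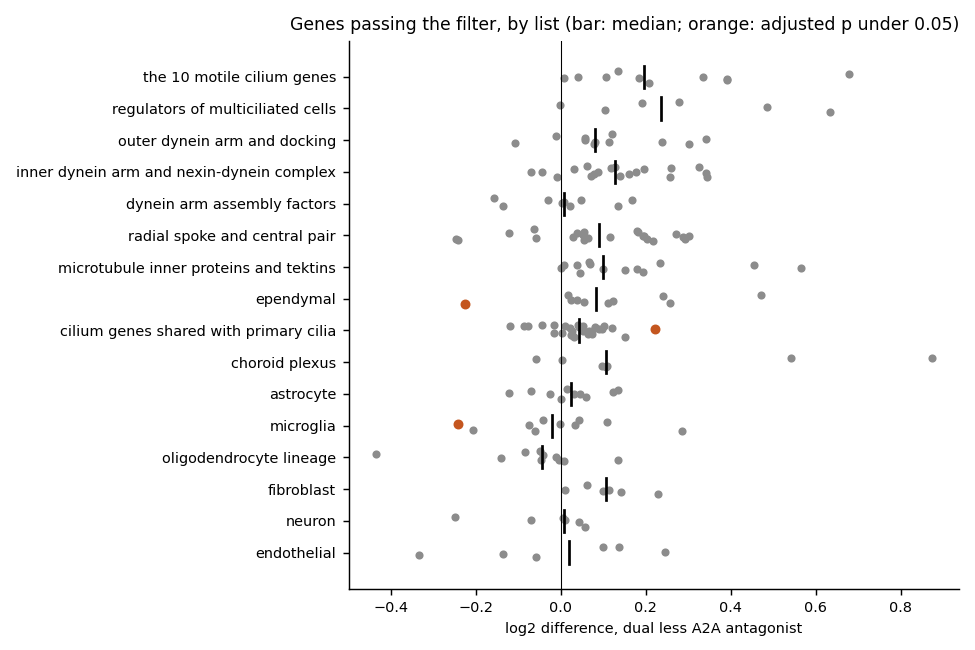
Log2 difference (dual less A2A antagonist) of each gene passing the filter, by list, with the median as a bar and genes of an adjusted p under 0.05 in orange. The 10 motile cilium genes have a median of 0.20, the regulators of multiciliated cells 0.23, and the lists of axoneme parts and dynein arm assembly 0.01 to 0.13. The 3 orange genes are Rarres2, Dync2h1 and C1qa.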

How the data were processed

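RNA of 8 cultures, 4 per group, was sequenced. The authors aligned reads to mm10 and counted them per gene with featureCounts 1.5.0-p3, per the submitters' processing notes. The deposited tables hold raw counts per gene and FPKM, which the authors scaled by exonic length and depth. They also hold the authors' fold changes and p-values, which were not used, and 9 columns of values from 3 control libraries that match no sample of this series, not used either. Counts of the antagonist libraries were the same in both tables.

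Genes passing filterByExpr (minimum count 10) were fitted with edgeR 4.0.16 (R 4.3.3, TMM factors from 0.992 to 1.009, quasi-likelihood test, Benjamini-Hochberg over 18756 genes, threshold 0.05, two-sided). The common coefficient of biological variation was 5.28%. Each SE of a log2 difference is its absolute value over the square root of the test's F statistic, not a fitted standard error. DESeq2 1.42.0, library totals, no filter, a replicate block and leaving out each library were the alternatives. CPM used the TMM factors, and patterns log2 CPM with a prior count of 2. The scripts were tested on simulated data. The genes and lists were chosen with earlier results of these data known, and the length bins and half-sites after values were seen. Named genes were the 10, the 2 highest per length in each list, called genes of the cilium lists and the 10 most alike in pattern, and others were named after their values were seen. Dnai1 and Dnai2 were matched through older symbols, Cldn5 and Pih1d3 had no row. Overlaps and shared stretches of 31 bases came from GENCODE M21, which held 31389 of the genes, 97.4% of the table with the same coordinates. At 3 counts per library, a count of 0 allows 0.0654 to 0.0919 CPM, for counting error only.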

Additional observations from a re-analysis of the deposited data

How the results depend on the processing

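In edgeR's test, 39 genes of all tested differed between the groups, and the count moved with the setting. It was 369 with DESeq2, 366 without the filter on low counts, 39 with library totals in place of TMM factors, and 0 to 172 on leaving out each library in turn. With the replicate number as a block it was 17. Libraries with the same number did not deviate together (r = 0.02, -0.05, 0.04 and -0.01), nor did every library correlate best with its own number, so the numbers were not read as pairs. Of the 10 motile cilium genes, called 0 times in the main test, DESeq2 called 2, the unfiltered fit 3, the block 0 and the fits without 1 library 0 to 3. Of the 80 other motile cilium genes, DESeq2 called 1, the unfiltered fit 2 (Cfap54 and Rsph4a) and the fits without 1 library 0 to 1. The cause was not tested. Log2 differences without 1 library ran from -0.0384 to 0.0373 for Foxj1 (-0.0213 without A2A antagonist 3 and -0.00299 without dual 2), from -0.0252 to 0.0969 for Ccdc40 and from -0.0167 to 0.201 for Spag6l, and those of the other 7 kept their sign under all 12 alternatives. The mean pairwise r of the 10 genes ran from 0.52, without dual 3, to 0.79, without dual 4. Dnah12 and Hydin had at most 384 and 292 reads in any library, which limits the precision of their values. With the replicate block, Dync2h1 and Rarres2 had adjusted p-values of 0.0738 and 0.101, C1qa kept its call, and none of the motile cilium genes was called.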
